A study of Mus musculus with 12 samples.

Results

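The genes described here are the 10 core members of the mammalian circadian clock named *Arntl*, *Clock*, *Per1*, *Per2*, *Per3*, *Cry1*, *Cry2*, *Nr1d1*, *Nr1d2* and *Dbp*. They were chosen by name, and 10 of the 10 were present among the 22317 genes of the count table. RNA-seq of poly(A) RNA was carried out on 12 libraries in 4 groups of 3, from wild-type male BALB/c mice aged 8 weeks and kept on a 12/12 h light/dark cycle, in which photothrombosis (a light-activated dye that clots vessels under a laser) had injured either the brain or the skull. The group labelled SB2 is brain cortex on day 2 after skull injury, SB4 is brain cortex on day 4 after skull injury, BS2 is interparietal bone on day 2 after brain injury and BS6 is interparietal bone on day 6 after brain injury. All 4 groups therefore come from injured mice, no uninjured group was analysed here, and the hour of the day at which tissue was taken is not given in the sources used here. The study states 3 biological replicates per condition, and whether a replicate is a single mouse is not given.

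The labels and the tissue markers did not match in 2 of the 4 groups. The mean log2(CPM + 1) of 8 neuronal markers (CPM, the usual scaling of counts to library size) was 9.68 to 9.80 in the libraries labelled SB4 and 9.68 to 9.70 in those labelled BS2, but 2.42 to 2.81 in SB2 and 2.38 to 3.85 in BS6. The mean over the 6 osteoblast and osteocyte markers found in the table ran the other way, at 1.44 to 1.60 in SB4, 1.54 to 1.68 in BS2, 7.99 to 8.30 in SB2 and 7.24 to 8.36 in BS6. The SB4 and BS2 libraries are called brain-rich below and the SB2 and BS6 libraries bone-rich, and each group keeps its label. The comparisons that share tissue content are thus SB4 against BS2 and SB2 against BS6, but in each of them, by the labels, the injured organ and the day also differ, so that these and the hour of sampling cannot be told apart. Whether the SB2 and BS2 labels were exchanged is not settled by the sources used here. If they were, the injured organ would be the same within each of these comparisons and the day would still differ. One library stood apart from its group, BS6 replicate 2, whose 5 neutrophil lineage markers found in the table summed to 23430 CPM, against 1347 and 3237 CPM in the other BS6 libraries. Total counts were 14126082 to 18972654 per library.

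The clock is a feedback loop of transcription. The proteins of *Arntl* (also called Bmal1) and *Clock* pair and bind E-boxes in the *Per*, *Cry*, *Nr1d1*, *Nr1d2* and *Dbp* genes, the PER and CRY proteins then block that pair, and the nuclear receptors REV-ERBα and REV-ERBβ, encoded by *Nr1d1* and *Nr1d2*, repress *Arntl*. As a result *Arntl* RNA peaks at about the opposite time of day to *Nr1d1*, *Dbp* and the *Per* genes in most peripheral tissues, and the balance between them is a commonly used sign of the hour at which a tissue was taken. Neuronal activity and glucocorticoid hormone also induce *Per1* directly.

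In mm10 the genes, all protein-coding, lie at chr7:113207465-113314126 (*Arntl*), chr5:76209868-76304792 (*Clock*), chr11:69095217-69109960 (*Per1*), chr1:91415982-91459324 (*Per2*), chr4:151003652-151044665 (*Per3*), chr10:85131700-85185064 (*Cry1*), chr2:92403646-92434043 (*Cry2*), chr11:98767932-98775333 (*Nr1d1*), chr14:18204054-18239127 (*Nr1d2*) and chr7:45705088-45710203 (*Dbp*). The promoters shown next are among those in which letters of a clock element were found. Windows of 250 bases before a RefSeq transcript start (GRCm38.p6) were at hand for 9 of the 10 genes, and 4 are printed on the gene's strand with the motif letters in capitals. They lie at chr11:69098699-69098948 on the plus strand for *Per1*, and on the minus strand at chr4:151044666-151044915 for *Per3*, chr10:85185055-85185304 for *Cry1* and chr11:98775378-98775627 for *Nr1d1*.
Per1: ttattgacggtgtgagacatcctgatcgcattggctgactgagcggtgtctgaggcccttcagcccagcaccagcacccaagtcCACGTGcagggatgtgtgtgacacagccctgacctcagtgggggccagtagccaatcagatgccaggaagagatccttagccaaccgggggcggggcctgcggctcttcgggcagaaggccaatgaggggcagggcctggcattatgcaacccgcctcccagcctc
Per3: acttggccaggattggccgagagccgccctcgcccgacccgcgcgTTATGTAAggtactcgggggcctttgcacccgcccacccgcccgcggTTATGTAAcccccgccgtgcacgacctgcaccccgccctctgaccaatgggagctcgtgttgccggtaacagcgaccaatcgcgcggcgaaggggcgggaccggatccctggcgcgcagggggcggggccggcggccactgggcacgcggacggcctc
Cry1: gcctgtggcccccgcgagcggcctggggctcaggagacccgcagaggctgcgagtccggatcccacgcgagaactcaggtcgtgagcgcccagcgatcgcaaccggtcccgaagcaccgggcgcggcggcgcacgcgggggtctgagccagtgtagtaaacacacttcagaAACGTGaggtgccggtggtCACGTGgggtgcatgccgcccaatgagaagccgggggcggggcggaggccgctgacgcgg
Nr1d1: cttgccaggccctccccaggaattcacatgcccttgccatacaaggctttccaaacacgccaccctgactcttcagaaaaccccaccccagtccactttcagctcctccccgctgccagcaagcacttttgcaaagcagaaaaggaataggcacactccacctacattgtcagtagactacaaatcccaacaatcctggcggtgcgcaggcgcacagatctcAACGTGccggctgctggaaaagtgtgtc

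The E-box letters CACGTG stood 166 to 161 bases before the start in *Per1* and 60 to 55 bases before it in *Cry1*, 2 of the 9 genes, while 6.86% of the 27025 genes with a RefSeq window of this length held them in at least 1 window. The related E-prime box (CACGTT, read on either strand) was found in 3 genes, *Cry1*, *Cry2* and *Nr1d1*, and in 4.5% of all genes. The D-box (TTANGTAA), which the DBP protein binds, occurred in 1 gene, *Per3*, as 2 copies 205 to 198 and 158 to 151 bases before the start, and in 2.44% of all genes. The ROR element (TAGGTCA or TGGGTCA), where REV-ERB proteins bind, and the cAMP response element (TGACGTCA) were found in 0 of the 9 genes, against 6.15% and 1.77% of all genes. A match is a description of letters, both strands were searched, none of these matches overlapped another, and a window without letters says nothing of elements elsewhere. In the GENCODE M21 models the *Per1* window is intronic apart from 1 base, the *Per3* window lies in an intron of the neighbouring *Camta1*, 10 bases of the *Cry1* window are exonic and the *Nr1d1* window is intergenic.

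**Figure D1:**
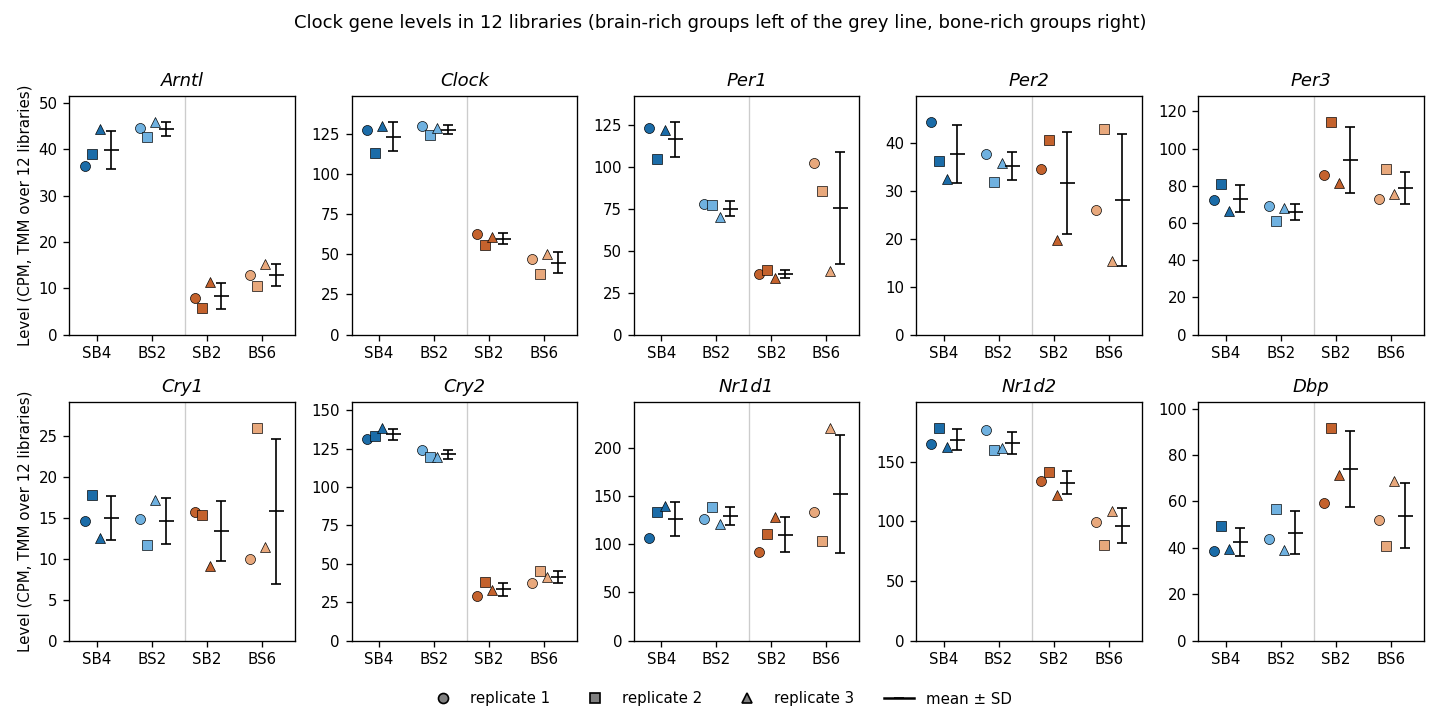
Level of each clock gene in the 12 libraries, in CPM on a linear axis from 0, by group label, with a circle, square or triangle for replicates 1, 2 and 3 and the mean ± SD (n = 3) beside them. The brain-rich groups SB4 and BS2 lie left of the grey line and the bone-rich groups SB2 and BS6 right of it; the SB4 points stand clear of the BS2 points in *Per1* (104.4 to 122.7 against 70.02 to 77.8 CPM) and, by less, in *Cry2*, and *Arntl*, *Clock* and *Cry2* step down from the brain-rich to the bone-rich groups.

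The brain-rich libraries were compared first. *Per1* was the one clock gene that passed the edgeR test between SB4 and BS2 on their 6 libraries. *Per1*, a period gene that outside stimuli induce directly, measured 122.7, 104.4 and 121.8 CPM in SB4 and 77.8, 77.04 and 70.02 CPM in BS2. Every SB4 library was above every BS2 library. The means were 116.3 ± 10.3 and 74.95 ± 4.29 CPM (SD, n = 3 each), a log2 fold change of 0.62 (SE 0.07, 95% interval 0.46 to 0.77, 1.53-fold, adjusted p = 8.41e-05 in the quasi-likelihood test of edgeR, Benjamini-Hochberg adjusted over 16278 genes). This passed the adjusted p of 0.05 but not the further threshold of an absolute log2 fold change over 1. By adjusted p alone, 1 of the 10 clock genes was called by edgeR against 0.94% of all genes tested. With the fold threshold 0 of 10 were called by edgeR against 0.147%, and 0 of 10 by DESeq2 against 0.286%. At an unadjusted p under 0.05 there were 3 of the 10. Counts at an unadjusted p, here and below, have no share of all genes beside them, so they were not read against all genes. In 1 fit over the 12 libraries, which takes its spread from the bone-rich libraries too, the *Per1* fold change was again 0.62 but its adjusted p was 1.00.

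The activators did not pass the test in this comparison. *Arntl* measured 36.32, 39.03 and 44.34 CPM in SB4 and 44.59, 42.78 and 45.83 CPM in BS2, with 1 SB4 library inside the range of BS2. Its log2 fold change was -0.17 (95% interval -0.33 to -0.01, adjusted p = 0.404 by edgeR). *Clock*, the partner of *Arntl*, measured 127.7, 113.1 and 129.9 CPM in SB4 and 130, 124.5 and 129.1 CPM in BS2, with a log2 fold change of -0.07 (95% interval -0.20 to 0.06, adjusted p = 0.73 by edgeR). The groups overlapped for both genes.

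The other period and cryptochrome genes, the repressors of the loop, also did not pass. *Per2* measured 44.4, 36.26 and 32.42 CPM in SB4 and 37.69, 31.95 and 35.81 CPM in BS2, with a log2 fold change of 0.08 (95% interval -0.16 to 0.32). *Per3* measured 72.21, 80.67 and 66.17 CPM in SB4 against 69.07, 60.96 and 67.84 CPM in BS2, with a log2 fold change of 0.13 (95% interval -0.03 to 0.29). The groups overlapped for both, as they did for *Cry1*, which was the lowest of the 10 genes in CPM in these groups at 14.54, 17.78 and 12.53 CPM in SB4 and 14.86, 11.72 and 17.22 CPM in BS2 (log2 fold change 0.02, 95% interval -0.30 to 0.34). *Cry2* differed from these in that its groups did not overlap, with 131.5, 133.3 and 138.4 CPM in SB4 and 124.3, 119.7 and 119.3 CPM in BS2, but its log2 fold change of 0.13 (95% interval 0.02 to 0.25) had an adjusted p of 0.324 by edgeR. *Per1* and *Cry2* were the 2 clock genes whose groups did not overlap, while 16.5% of all genes tested did not overlap.

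The REV-ERB genes and *Dbp*, which move most with the hour in many tissues, were close between SB4 and BS2. *Nr1d1* measured 106.3, 133 and 139.3 CPM in SB4 and 126.5, 139 and 120.9 CPM in BS2, with a log2 fold change of -0.04 (95% interval -0.22 to 0.13, adjusted p = 0.885 by edgeR). *Nr1d2* measured 165.3, 178.5 and 162.5 CPM against 176.4, 160 and 161.3 CPM, with a log2 fold change of 0.01 (95% interval -0.11 to 0.13). *Dbp*, a transcription factor that carries the rhythm to output genes, measured 38.59, 49.47 and 39.49 CPM against 43.77, 56.8 and 39.01 CPM, with a log2 fold change of -0.15 (95% interval -0.49 to 0.20). All 3 genes had overlapping groups, and the interval of *Dbp* was the widest of the 10 in this comparison. A p that misses the threshold does not show that levels were alike: the intervals of the 9 genes other than *Per1* ran from -0.49 to 0.34 at their outermost.

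**Figure D2:**
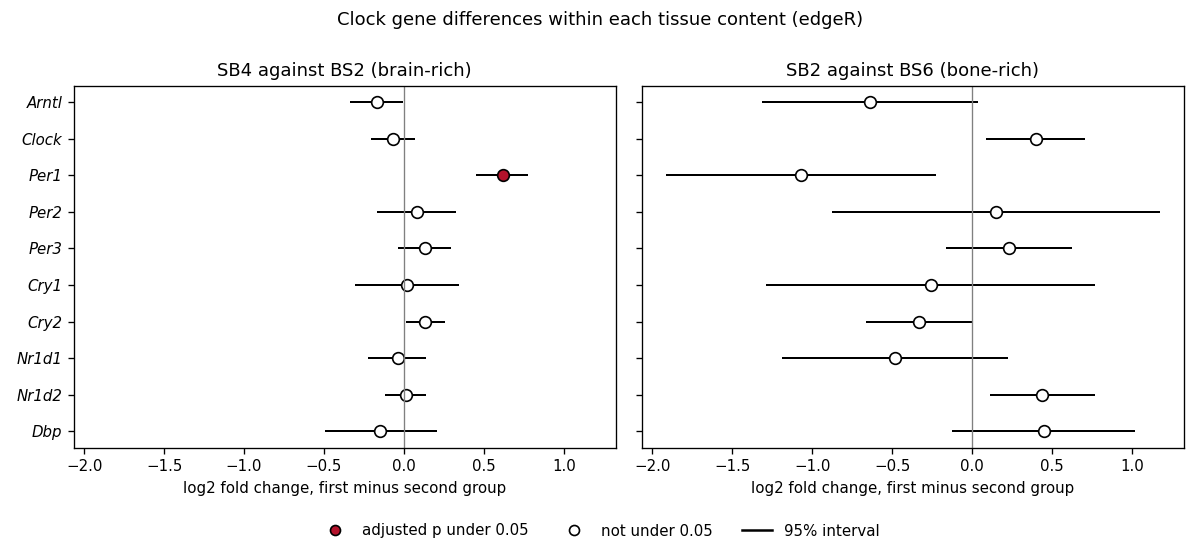
Log2 fold change of each clock gene with its 95% interval from edgeR, SB4 minus BS2 (left) and SB2 minus BS6 (right), filled where the adjusted p was under 0.05. *Per1* is the filled point, at 0.62 on the left, and lies at -1.07 on the right, where the intervals are wider and no gene is filled.

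Between the bone-rich groups no clock gene passed the edgeR test on their 6 libraries, and the intervals were wider. By adjusted p alone, 0 of the 10 genes were called between SB2 and BS6 by edgeR, against 5.71% of all 16329 genes tested, and with the fold threshold 0 of 10 against 1.86%. At an unadjusted p under 0.05 there were 3, *Clock*, *Per1* and *Nr1d2*, again without a share of all genes beside them. DESeq2 called 2 by adjusted p alone, *Per1* and *Nr1d2*, and 1 with the fold threshold, against 18.9% and 6.62% of all genes by DESeq2. In 1 fit over the 12 libraries 5 of the 10 passed by adjusted p alone, against 23.6% of all genes, *Arntl* (adjusted p = 0.0438), *Clock* (0.0299), *Per1* (0.0185), *Cry2* (0.0279) and *Nr1d2* (0.0191), all by edgeR.

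*Per1* measured 36.17, 38.69 and 33.88 CPM in SB2 and 102, 85.59 and 37.87 CPM in BS6. In BS6 it was high in replicates 1 and 2, while replicate 3 lay within the range of SB2. Its log2 fold change was -1.07 (SE 0.35, 95% interval -1.91 to -0.23, adjusted p = 0.112 by edgeR). Without BS6 replicate 3 it was -1.39 with an adjusted p of 0.0366, and without BS6 replicate 2, the library that stood apart, it was -0.96 with an adjusted p of 0.244, both by edgeR. The direction was opposite to that between SB4 and BS2, where *Per1* was higher in the first group. The difference of both differences, (SB4 minus BS2) minus (SB2 minus BS6), was 1.72 for *Per1* (SE 0.39, 95% interval 0.86 to 2.58, adjusted p = 0.0248 in an edgeR fit over all 12 libraries). It was the 1 clock gene called there, with and without the fold threshold, against 2.91% and 8.58% of all 18068 genes tested. That call was lost on leaving out any 1 of 8 libraries, the 3 of SB4, the 3 of BS2 and replicates 1 and 3 of SB2, with adjusted p of 0.052 to 0.0627.

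*Clock* and *Nr1d2* were higher in SB2 than in BS6 in every library without passing the test. *Nr1d2* measured 133.7, 141.4 and 122.3 CPM in SB2 and 99.83, 80.45 and 109 CPM in BS6, a log2 fold change of 0.44 (95% interval 0.12 to 0.76, adjusted p = 0.0954 by edgeR). *Clock* measured 62.54, 55.94 and 60.69 CPM in SB2 and 46.88, 37.57 and 50.08 CPM in BS6, a log2 fold change of 0.40 (95% interval 0.09 to 0.70, adjusted p = 0.105 by edgeR). These were the 2 clock genes whose groups did not overlap, while 38.1% of all genes tested did not overlap. Without BS6 replicate 2, *Nr1d2* had a log2 fold change of 0.33 and an adjusted p of 0.0394, and *Clock* one of 0.29 and an adjusted p of 0.0579, both by edgeR.

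*Arntl* was at its lowest in the bone-rich libraries, with 7.974, 5.661 and 11.36 CPM in SB2 and 12.78, 10.57 and 15.21 CPM in BS6. The groups overlapped through SB2 replicate 3 and BS6 replicate 2. The log2 fold change was -0.64 (95% interval -1.31 to 0.03, adjusted p = 0.188 by edgeR), and behind it lay 85 to 186 counts in SB2 and 175 to 239 in BS6.

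The remaining period and cryptochrome genes did not pass either. *Per2* measured 34.57, 40.56 and 19.84 CPM in SB2 and 26.08, 42.88 and 15.4 CPM in BS6, so that replicate 3 was the lowest library of both groups (log2 fold change 0.15, 95% interval -0.87 to 1.17). *Per3* measured 85.84, 114.3 and 81.44 CPM against 72.64, 88.79 and 75.29 CPM (log2 fold change 0.23, 95% interval -0.16 to 0.62). *Cry1* measured 15.66, 15.38 and 9.158 CPM against 9.977, 25.97 and 11.39 CPM, with BS6 replicate 2 the highest of all 12 libraries. Its log2 fold change of -0.26 (95% interval -1.28 to 0.76) became 0.32 without that library. *Cry2* measured 28.99, 37.83 and 33.15 CPM in SB2 and 37.23, 45.42 and 41.3 CPM in BS6, where 1 SB2 library reached into the range of BS6 (log2 fold change -0.33, 95% interval -0.66 to 0.00, adjusted p = 0.175 by edgeR).

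*Nr1d1* measured 91.59, 110.2 and 127.8 CPM in SB2 and 132.8, 102.9 and 220.5 CPM in BS6, where replicate 3 held more than in any other library of the 12. Its log2 fold change was -0.48 (95% interval -1.18 to 0.22, adjusted p = 0.312 by edgeR), and -0.12 without BS6 replicate 3. *Dbp* measured 59.12, 91.64 and 71.37 CPM in SB2 and 51.77, 40.83 and 68.73 CPM in BS6, a log2 fold change of 0.45 (95% interval -0.12 to 1.01, adjusted p = 0.255 by edgeR). Both genes had overlapping groups, and the signs of the 2 values were opposite. *Nr1d1* shares 263 exon bases (8.55% of its exons) with the antisense gene *Thra* and *Dbp* shares 539 (18%) with the antisense gene *Sphk2*. Whether the counting used strand is not given in the sources used here, so these counts are uncertain to that extent. *Thra* itself was at 74.27 to 82.51 CPM in SB2 and 87.52 to 120.3 CPM in BS6, and higher in the brain-rich groups, at 330.6 to 352.1 CPM in SB4 and 308.9 to 350.3 CPM in BS2. The uncertainty therefore also holds for *Nr1d1* in the brain-rich groups, between brain-rich and bone-rich groups and per kilobase below.

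The ratio of a gene of the opposite phase to *Arntl* within a library does not depend on library size. It was taken as a possible sign of the hour. The ratios of *Nr1d1* and *Dbp* given next also differed between brain-rich and bone-rich libraries. The parts of cell content and of the hour in these ratios were not tested. The log2 ratio of *Nr1d1* to *Arntl* counts was 1.55, 1.77 and 1.65 in SB4 and 1.50, 1.70 and 1.40 in BS2, a difference of 0.12 (exact permutation p = 0.4, two-sided, n = 3 each). In the bone-rich libraries it was 3.52, 4.28 and 3.49 in SB2 and 3.37, 3.28 and 3.85 in BS6, a difference of 0.26 (exact permutation p = 0.5). The groups overlapped in both comparisons. The log2 ratio of *Dbp* to *Arntl* was 0.09, 0.34 and -0.17 in SB4 and -0.03, 0.41 and -0.23 in BS2, a difference of 0.04 (exact permutation p = 0.9). It was 2.89, 4.01 and 2.65 in SB2 and 2.02, 1.95 and 2.17 in BS6, where every SB2 library was above every BS6 library by a mean difference of 1.14 (exact permutation p = 0.1, the smallest that 3 against 3 allow). The log2 ratio of *Per3* to *Arntl* differed by 0.30 between SB4 and BS2 and by 0.90 between SB2 and BS6 (exact permutation p = 0.2 for each), with overlapping groups. After Benjamini-Hochberg adjustment over these 6 exact permutation tests the values were 0.4 to 0.9. With 3 libraries a group no such test could pass 0.05. Leaving out each library in turn, the SB2 against BS6 difference ran from 0.72 to 1.4 for *Dbp*, from 0 to 0.43 for *Nr1d1* and from 0.51 to 1.25 for *Per3*, with the lowest value of each without SB2 replicate 2. The SB4 against BS2 difference ran from -0.1 to 0.22, from 0.05 to 0.2 and from 0.22 to 0.45.

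**Figure D3:**
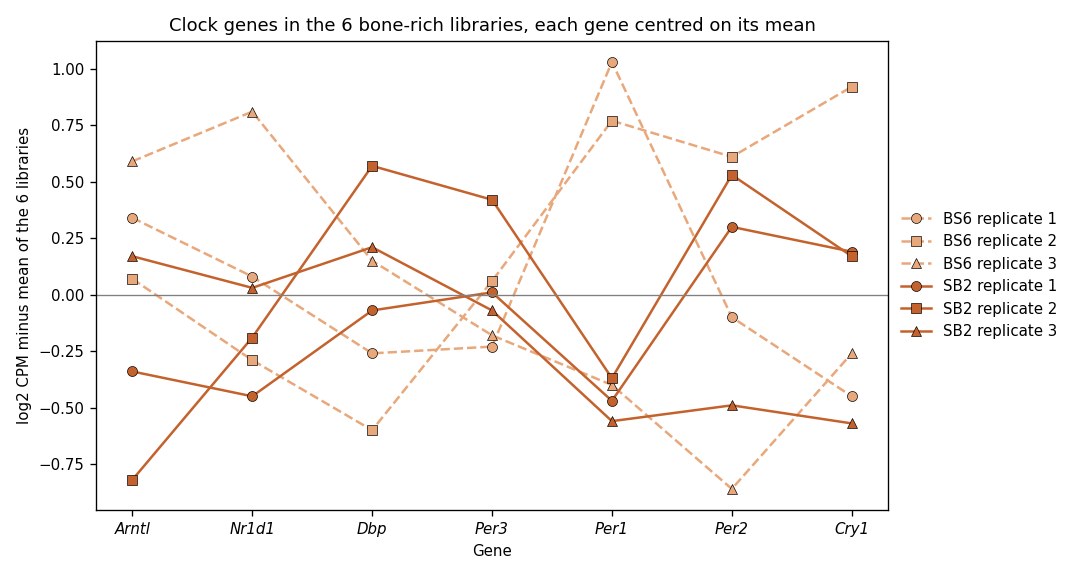
Level of 7 clock genes in each of the 6 bone-rich libraries, as log2 CPM minus the mean of the 6, with SB2 as solid and BS6 as dashed lines; the lines join values of 1 library and the genes have no order in time. BS6 replicate 3 is at 0.81 for *Nr1d1* and -0.86 for *Per2*, and BS6 replicates 1 and 2 are at 1.03 and 0.77 for *Per1* while the other 4 libraries are at -0.37 to -0.56.

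Libraries of 1 group differed from each other in clock genes more in the bone-rich than in the brain-rich groups. The coefficient of variation (CV, the SD as a percentage of the mean) over the 3 libraries had a median over the 10 clock genes of 10.1% in SB4, 6.18% in BS2, 17.8% in SB2 and 22.1% in BS6. The medians over all genes at 10 CPM or more were 5.41%, 5.78%, 7.18% and 15.1%, and 8, 5, 8 and 6 of the 10 clock genes were above them in those 4 groups. The widest spreads were those of *Cry1* (56.1%), *Per2* (49.3%), *Per1* (44.3%) and *Nr1d1* (40.2%) in BS6 and of *Arntl* (34.4%) and *Per2* (33.7%) in SB2. The narrowest were those of *Cry2* in BS2 (2.28%) and SB4 (2.64%) and of *Clock* in BS2 (2.29%).

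The members moved in different ways among the 6 bone-rich libraries. BS6 replicate 3 was the highest of the 6 in *Nr1d1* and *Arntl*, at 0.81 and 0.59 above the mean of the 6 on the log2 scale, and the lowest in *Per2*, at -0.86. The 3 libraries lowest in *Per2* (BS6 replicates 3 and 1 and SB2 replicate 3) were the 3 highest in *Nr1d1*. SB2 replicate 2 was the lowest in *Arntl*, at -0.82, and the highest in *Per3* (0.42) and *Dbp* (0.57). BS6 replicate 2 was the highest in *Cry1* (0.92) and *Per2* (0.61) and the lowest in *Dbp* (-0.60), *Clock* (-0.45) and *Nr1d2* (-0.48). In the same libraries the summed CPM of 5 erythroid markers was 1263 to 4578 in SB2 and 7677 to 12560 in BS6, and that of 4 skeletal muscle markers was 258 to 2280 in SB2 and 63.58 to 523.1 in BS6. The median log2 fold change in SB2 against BS6 was -3.02 for the neutrophil lineage, -2.35 for the erythroid, -1.15 for the T cell, -1.04 for the B cell and 2.83 for the muscle markers. Of the 64 markers of all cell types tested there, edgeR called 0 by adjusted p, with 20 at an unadjusted p under 0.05, and DESeq2 called 19, against 18.9% of all genes. In SB4 against BS2 edgeR called 3 of 49 markers against 0.94% of all genes. They were 1 neutrophil lineage marker higher in SB4 (log2 fold change 2.04) and 2 astrocyte markers lower. Only 1 of the 7 listed neutrophil lineage markers was tested there. The summed level of the 5 found in the table was 2.005 to 4.185 CPM in SB4 and 0.6488 to 1.38 CPM in BS2. In BS2, 3 to 4 of these 5 had 3 counts or fewer, so this value lies near the floor. The 6 fibrous matrix markers, all tested, had a median of -0.94, with 0 called by edgeR and 1 by DESeq2, against 0.94% and 1.71% of all genes. The other lists tested in full had medians of -0.14 to 0.25. The part of cell content in the clock gene values was not tested. In bulk tissue, fewer cells of a type and less RNA per cell cannot be told apart.

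Between brain-rich and bone-rich groups, *Arntl*, *Clock*, *Cry2* and *Nr1d2* passed by adjusted p in both comparisons. The comparisons across tissue content are SB4 against SB2, which share the label brain cortex, and BS6 against BS2, which share the label interparietal bone. With the fold threshold edgeR called 4 of 10 clock genes in the first against 56.4% of all 17293 genes tested, and 3 of 10 in the second against 55.5% of all 17311. By adjusted p alone the counts were 7 of 10 against 83.3% and 4 of 10 against 75%. In these 4 counts the share of clock genes called was below that of all genes.

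With the fold threshold *Arntl*, *Clock* and *Cry2* were called in both comparisons, higher in the brain-rich group each time. *Arntl* had a log2 fold change of 2.26 (SE 0.22, 4.79-fold, adjusted p = 1.59e-05) in SB4 against SB2 and of -1.75 (SE 0.15, adjusted p = 8.1e-05) in BS6 against BS2, both by edgeR. *Cry2* followed with 2.02 (SE 0.09) and -1.51 (SE 0.11), and *Clock* with 1.05 (SE 0.08) and -1.48 (SE 0.12). *Nr1d2* was higher in the brain-rich groups by less, at 0.35 (SE 0.07, adjusted p = 0.000731 by edgeR) in the first comparison and -0.75 (SE 0.13, adjusted p = 0.002 by edgeR) in the second. *Per1* was called in SB4 against SB2, at 1.69 (SE 0.09), but its log2 fold change in BS6 against BS2 was 0.04 (95% interval -0.79 to 0.88, adjusted p = 0.912 by edgeR). Without BS6 replicate 3 that value was 0.37 with an adjusted p of 0.0372 by edgeR.

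*Dbp* and *Per3* were lower in SB4 than in SB2. *Dbp* had a log2 fold change of -0.79 (SE 0.17, adjusted p = 0.00286 by edgeR) in SB4 against SB2 and of 0.24 (95% interval -0.30 to 0.79, adjusted p = 0.355 by edgeR) in BS6 against BS2. *Per3* had -0.36 (SE 0.13, adjusted p = 0.0319 by edgeR) and 0.30 (95% interval 0.01 to 0.58, adjusted p = 0.0565 by edgeR). The first *Per3* call was lost without SB2 replicate 2 (-0.19), SB4 replicate 1 (-0.34) or SB4 replicate 3 (-0.28), with adjusted p of 0.0555, 0.0942 and 0.116 by edgeR. The second passed with upper-quartile factors (adjusted p = 0.0188), with at least 10 counts in every library (0.0488) and without BS6 replicate 1 (0.0444), all by edgeR. *Per2*, *Cry1* and *Nr1d1* passed in neither comparison, with log2 fold changes of 0.26, 0.16 and 0.21 in SB4 against SB2 and of -0.28, 0.16 and 0.27 in BS6 against BS2. The *Nr1d1* value in SB4 against SB2 passed with the replicate number as a block (adjusted p = 0.0165) and, at 0.33, without SB2 replicate 3 or SB4 replicate 1 (adjusted p = 0.0252 and 0.047), all by edgeR. Without BS6 replicate 2 the *Per2* value in BS6 against BS2 was -0.72 with an adjusted p of 0.0171 by edgeR.

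Levels can be compared between genes only per length, and per kilobase of exon *Nr1d1* had the highest mean of the 10 in all 4 groups. It stood at 41.0 ± 5.69 CPM per kb in SB4, 41.9 ± 3.01 in BS2, 35.7 ± 5.88 in SB2 and 49.4 ± 19.9 in BS6 (SD, n = 3 each). In the brain-rich groups *Nr1d2* came next, with 31.2 CPM per kb in SB4 and 30.7 in BS2, followed by *Cry2*, with 21.3 and 19.2, whose libraries overlapped those of *Per1* in SB4 and of *Dbp* in BS2. In the bone-rich groups *Dbp* came second, with 24.7 CPM per kb in SB2 and 18.0 in BS6, but its libraries overlapped those of *Nr1d2* in both groups and those of *Nr1d1* in SB2. *Arntl* was the lowest of the 10 in both bone-rich groups, at 1.11 CPM per kb in SB2 and 1.71 in BS6. In the brain-rich groups the lowest means were those of *Cry1* (4.48 in SB4 and 4.37 in BS2) and *Arntl* (5.30 and 5.90), whose libraries overlapped in SB4.

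Other genes tied to the clock were counted from lists, beside the median log2 fold change of all genes tested (0.00 between SB4 and BS2 and -0.02 between SB2 and BS6). On leaving out any 1 of the 3 SB2 libraries edgeR called 0 of all genes between SB2 and BS6, so each edgeR call given for that comparison on its 6 libraries in these lists was lost then. The DESeq2 calls were not tested in that way. Of 11 other clock and clock output transcription factors, such as *Npas2*, *Nfil3*, *Tef*, *Hlf* and *Ciart*, 0 passed by edgeR or DESeq2 between SB4 and BS2, against 0.94% and 1.71% of all genes. At an unadjusted p under 0.05 there were 3, and the median log2 fold change was 0.09. Between SB2 and BS6, 1 of the 11 passed by edgeR against 5.71% of all genes, and DESeq2 called 3 against 18.9%. The gene was *Bhlhe40*, a repressor that competes for E-boxes. It measured 154.2, 123.7 and 120.9 CPM in SB2 and 75.12, 57.8 and 70.64 CPM in BS6, and every SB2 library was above every BS6 library (log2 fold change 0.96, SE 0.15, adjusted p = 0.0323 by edgeR). *Ciart* and *Bhlhe41* had values of 0.90 and 0.77 with adjusted p of 0.101 and 0.115 by edgeR. Without BS6 replicate 2, 4 of the 11 passed, all higher in SB2 (*Bhlhe40*, *Bhlhe41*, *Nfil3* and *Ciart*), when 20.3% of all genes passed by adjusted p alone.

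The 13 clock protein modifiers, the kinases and ubiquitin ligases that set the stability of PER and CRY proteins among them, had 0 calls by edgeR in either comparison. The shares of all genes were 0.94% between SB4 and BS2 and 5.71% between SB2 and BS6. At an unadjusted p under 0.05 there was 1 between SB4 and BS2 and 2 between SB2 and BS6, where DESeq2 called 2 against 18.9% of all genes. The lowest adjusted p was that of *Csnk1e*, the casein kinase that phosphorylates PER proteins, at 0.0632 by edgeR with a log2 fold change of -0.42 in SB2 against BS6. Without BS6 replicate 2 there were 3 calls, *Usp2* (0.74) and *Timeless* (0.47) higher and *Csnk1e* (-0.37) lower in SB2, a share near the 20.3% of all genes that passed then. Of 10 genes that are rhythmic in many tissues, 0 passed by edgeR or DESeq2 between SB4 and BS2, against 0.94% and 1.71% of all genes, with 2 at an unadjusted p under 0.05. Between SB2 and BS6, 3 passed by edgeR against 5.71% of all genes, and DESeq2 called 4 against 18.9%. *Tspan4* (log2 fold change 0.74, adjusted p = 0.0404) and *Coq10b* (0.89, adjusted p = 0.0488) were higher in SB2, and *Tsc22d3* (-1.46, adjusted p = 0.0293) was lower, all by edgeR.

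Other lists hold genes that share inputs with *Per1*. Of 11 immediate early genes, which neuronal activity and stress induce within minutes, 10 had a positive log2 fold change between SB4 and BS2, with a median of 1.01, and 8 had every SB4 library above every BS2 library, while 16.5% of all genes tested did not overlap. By adjusted p in edgeR 2 of the 11 rose, *Fosb* (0.75, SE 0.13, adjusted p = 0.00606) and *Ier2* (1.06, SE 0.21, adjusted p = 0.0286), against 0.94% of all genes called. DESeq2 called 6 of the 11, against 1.71% of all genes. *Fosb*, a subunit of the AP-1 factor, measured 20.5, 15.0 and 15.99 CPM in SB4 and 8.966, 11.01 and 10.24 CPM in BS2. *Junb*, another AP-1 subunit, measured 92.28, 55.61 and 74.08 CPM in SB4 and 33.27, 41.5 and 34.14 CPM in BS2 (log2 fold change 1.01, adjusted p = 0.218 by edgeR). *Arc*, which acts at synapses, measured 445.8, 161.3 and 410.2 CPM in SB4 and 79.98, 91.96 and 97.77 CPM in BS2, with a log2 fold change of 1.90 and an adjusted p of 0.257 by edgeR. SB4 replicate 2 was the lowest of the 3 SB4 libraries in every gene of this list and in *Per1*. Examples are *Fos* (56.46, 24.25 and 45.9 CPM in SB4) and *Egr1* (462.5, 273.8 and 473.2 CPM). That library was also the lowest of the 3 in *Clock* (113.1 CPM). In BS2 the order of libraries differed, the highest being replicate 3 for *Arc*, replicate 2 for *Junb* and replicate 1 for *Per1*. In SB2 against BS6, 1 of the 11 passed against 5.71% of all genes, *Junb*, which was higher in SB2 (0.68, adjusted p = 0.0412 by edgeR), the median was 0.38 and DESeq2 called 3 against 18.9%. The part of neuronal activity or handling in the *Per1* difference was not tested.

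**Figure D4:**
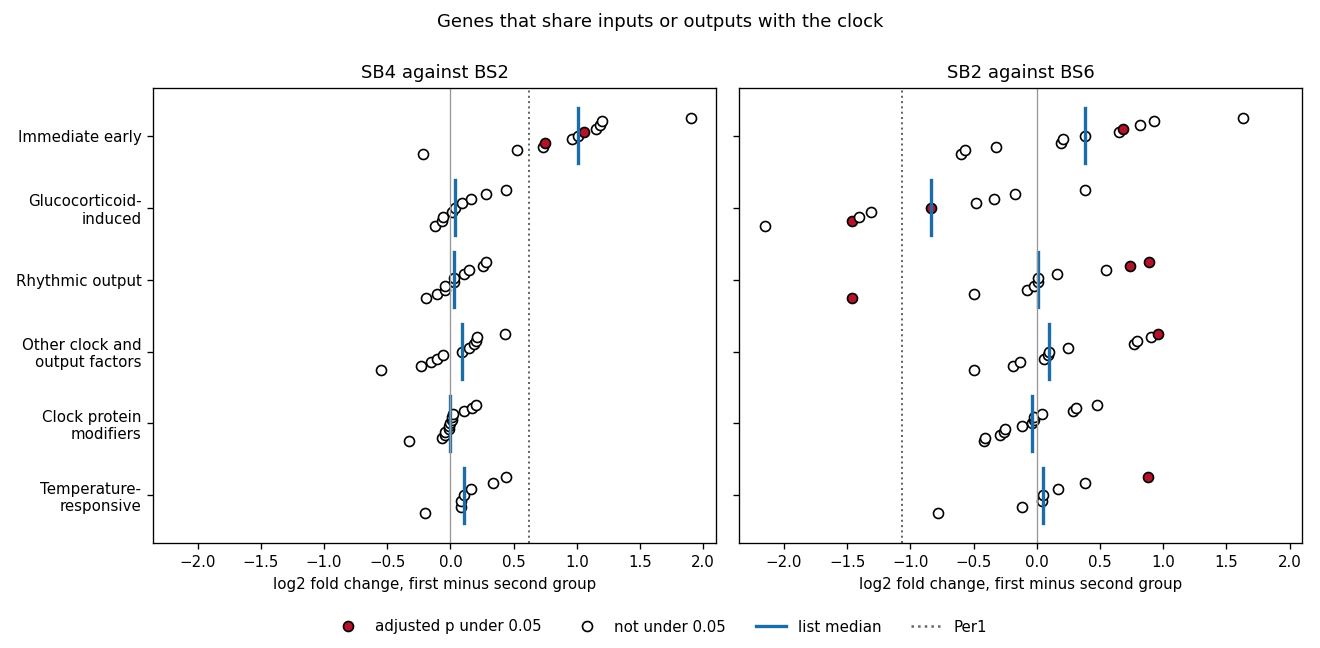
Log2 fold change of each gene of 6 lists tied to the clock, SB4 minus BS2 (left) and SB2 minus BS6 (right), filled where edgeR's adjusted p was under 0.05, with a bar at each list's median and a dotted line at *Per1*. The immediate early genes have a median of 1.01 on the left, and the glucocorticoid-induced genes a median of -0.84 on the right.

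Of 9 glucocorticoid-induced genes, 0 passed by edgeR or DESeq2 between SB4 and BS2, against 0.94% and 1.71% of all genes. At an unadjusted p under 0.05 there were 2, and the median log2 fold change was 0.04. In SB2 against BS6, 8 of the 9 had a negative log2 fold change, with a median of -0.84, and 2 fell by adjusted p in edgeR, against 5.71% of all genes called, while DESeq2 called 4 against 18.9%. *Tsc22d3* (also called GILZ, a mediator of glucocorticoid action, which also stands in the list of rhythmic genes) measured 67.78, 77.39 and 58.85 CPM in SB2 and 180.0, 224.1 and 149.2 CPM in BS6. *Klf9*, a glucocorticoid-induced transcription factor, measured 52.86, 55.94 and 47.93 CPM in SB2 and 87.83, 111.3 and 77.58 CPM in BS6 (log2 fold change -0.84, SE 0.16, adjusted p = 0.0406 by edgeR). For both, every SB2 library was below every BS6 library. *Zbtb16*, *Fkbp5* and *Pdk4* had larger or like values of -2.15, -1.41 and -1.31 without passing, with adjusted p of 0.0954, 0.186 and 0.0939 by edgeR. *Fkbp5* was at 270.9 CPM in BS6 replicate 2 and at 49.17 and 89.67 CPM in the other BS6 libraries. Without that library the same 2 genes passed, a share near the 20.3% of all genes that did, 7 of 9 values were negative and the median was -0.42. The neutrophil lineage and erythroid markers also had negative medians in SB2 against BS6 (-3.02 and -2.35), with 5 of 5 tested in each list at an unadjusted p under 0.05 and 0 called by edgeR, while DESeq2 called 5 of 5 in each. The T and B cell markers had medians of -1.15 and -1.04. The part of cell content in the values of this list, and that of glucocorticoid hormone in those of *Per1*, was not tested.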

How the data were processed

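The authors extracted RNA, made poly(A) libraries, cleaned the paired reads with fastp and mapped them to mm10 with HISAT2 2.1.0, and deposited whole-number counts per gene symbol. The counting program, its annotation, its use of strand and whether the counts precede the batch correction by ComBat_seq are not given in the sources used here. Per the labels, columns were matched to samples by name, and 0 columns belonged to other samples. The members and lists were chosen with earlier results of these data known. All 10 members are named, and of the other lists up to 4 genes per comparison with the lowest adjusted p. *Fkbp5* and the genes named only without BS6 replicate 2 were chosen after their values were seen.

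From the deposited counts, edgeR 4.0.16 (R 4.3.3) was run on all genes that passed filterByExpr (minimum count 10), with TMM factors and the quasi-likelihood test, on the 2 groups compared or, for the difference of both differences, on all 12 libraries. Genes were called at an adjusted p (Benjamini-Hochberg) below 0.05 together with a log2 fold change beyond 1 in either direction, or by adjusted p alone where stated. CPM used TMM factors over the 12 libraries, and 3 counts correspond to 0.163 to 0.218 CPM. Log2 ratios had 0.5 added to each count. Lengths and positions came from GENCODE M21, promoters from RefSeq. Alternatives were DESeq2 1.42.0, other scalings and filters, 1 fit over 12 libraries, a replicate block and leaving out each library. Shares called by DESeq2 are of the genes it gave an adjusted p. The script was tested on simulated data. P-values measure the spread between these libraries.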

Additional observations from a re-analysis of the deposited data

Results flagged for a closer look

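*Per1* differed in its difference between the 2 pairs of groups. It was 0.62 higher on the log2 scale in SB4 than in BS2 and 1.07 lower in SB2 than in BS6 (-1.07), and the test of (SB4 minus BS2) minus (SB2 minus BS6) gave 1.72 (SE 0.39, adjusted p = 0.0248 by edgeR over 18068 genes). In the 3 SB4 libraries it was at 104.4 to 122.7 CPM and in BS2 at 70.02 to 77.8 CPM, and in SB2 at 33.88 to 38.69 CPM and in BS6 at 37.87 to 102 CPM. The value was 1.41 to 2.01 over the alternatives, and the call was lost without any 1 of 8 libraries. The pairs differ in tissue content and in the days compared at once, and the SB2 and BS2 labels do not match their tissue markers, so these cannot be told apart. With 3 libraries a group, no outlier test of single libraries was run.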

How the results depend on the processing

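Of the single clock gene values under the alternatives, 682 kept their direction and their side of the threshold, 12 lost and 27 gained a call, and 29 changed sign. Causes were not tested. Between SB4 and BS2, main counts of 24 genes called and 153 by adjusted p alone became 43 and 257 with DESeq2, 50 and 284 with no filter, and 8 and 9 in 1 fit over 12 libraries, where 0 clock genes passed. Between SB2 and BS6, 303 and 932 became 1058 and 3023 with DESeq2 (clock genes 1 and 2), and 1273 and 4264 in 1 fit over 12 libraries (clock genes 1 and 5). For the difference of both differences, 526 and 1551 became 1002 and 2873 with DESeq2, and the clock genes by adjusted p alone were 2 with DESeq2 and with at least 10 counts in every library and 3 with total counts only. The shares of all genes with that filter and with total counts only are not given here.

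Leaving out each library in turn gave 18 to 85 genes called and 71 to 251 by adjusted p alone between SB4 and BS2. Between SB2 and BS6 it gave 0 to 667 and 0 to 3374 (clock genes 0 to 1 for both), with 667 and 3374 without BS6 replicate 2, 34 and 35 without BS6 replicate 1, 32 and 32 without BS6 replicate 3, and 0 and 0 without any 1 SB2 library. For the difference of both differences it gave 254 to 916 and 592 to 3059 (clock genes 0 to 1 and 0 to 3). Without BS6 replicate 2, an alternative chosen after seeing the data, 4 other clock factors and 3 clock protein modifiers passed between SB2 and BS6. Signs changed within these leave-one-out ranges: between SB4 and BS2, *Cry1* -0.12 to 0.15, *Nr1d1* -0.12 to 0.05, *Nr1d2* -0.03 to 0.06, *Dbp* -0.26 to 0.02, *Per2* -0.06 to 0.18 and *Clock* -0.10 to 0.00. Between SB2 and BS6, *Cry1* ran from -0.50 to 0.32 and *Per2* from -0.14 to 0.60, and between SB4 and SB2 *Cry1* from -0.05 to 0.29. Between BS6 and BS2, *Per1* ran from -0.23 to 0.37, *Cry1* from -0.41 to 0.41, *Per2* from -0.72 to 0.02 and *Nr1d1* from -0.08 to 0.49. For the difference of both differences, *Per2* ran from -0.49 to 0.23, *Cry1* from -0.27 to 0.52 and *Per3* from -0.17 to 0.09.

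With the replicate number as a block (replicate block), 61 genes were called and 256 by adjusted p alone between SB4 and BS2, 0 and 0 between SB2 and BS6, *Per1* was at -0.07 between BS6 and BS2, and *Nr1d1* gained a call between SB4 and SB2 (0.21, adjusted p = 0.0165 by edgeR). In the difference of both differences 2 clock genes passed by adjusted p alone, a count for which the share of all genes is not given here. No pairing by number was seen, as 0 of 3 same-numbered pairs correlated over 0.1 in each comparison. With 3 pairs a comparison this check cannot exclude a shared batch.

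The low count of *Arntl* in the bone-rich libraries (85 counts at the least) and 3 libraries a group limit what these data can show.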

Other observations

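Temperature is a further input to peripheral clocks. The list of 7 temperature-responsive genes holds the cold-induced *Cirbp* and *Rbm3* and 5 heat-shock genes. By edgeR or DESeq2 0 of the 7 passed between SB4 and BS2, against 0.94% and 1.71% of all genes. At an unadjusted p under 0.05 there were 3, and the median log2 fold change was 0.11. Between SB2 and BS6, DESeq2 called 2 and edgeR 1, against 18.9% and 5.71% of all genes. The gene was *Hsph1*, a co-chaperone, which measured 90.68, 56.41 and 70.21 CPM in SB2 and 41.08, 40.83 and 34.75 CPM in BS6 (log2 fold change 0.88, adjusted p = 0.0494 by edgeR). *Cirbp* had -0.78 with an adjusted p of 0.0871 by edgeR.

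The genes most like *Arntl* and *Nr1d1* were sought over the 12 libraries, after centring log2 CPM within the 6 brain-rich and the 6 bone-rich libraries, among 10176 genes. The points share libraries and depth, and the values are a description. Centred *Arntl* ran from -0.82 to 0.59 in the bone-rich and from -0.21 to 0.13 in the brain-rich libraries. Centred *Nr1d1* ran from -0.45 to 0.81 and from -0.26 to 0.13, so the bone-rich libraries weigh more in these values of r. *Cacna2d3* (Pearson r = 0.93), *Scg2*, *Scamp5*, *Dcun1d4* and *Col9a3* were most like *Arntl*, and *Ndufv1* (-0.91), *Timm17b*, *Gm11273*, *Uqcrc1* and *Rbfox1* the least. For *Nr1d1*, *Adgrd1* (0.94), *Mxd4*, *Rgs3*, *Anks6* and *Boc* were most like it, and *Smn1* (-0.91), *Btbd10*, *Far1*, *Sdad1* and *Cdc7* the least. Among the clock genes, *Per3* was the 24th lowest with *Arntl* (-0.84), *Per2* the 9th lowest with *Nr1d1* (-0.87), and *Nr1d1* with *Arntl* had an r of 0.69. The other clock genes had an r of -0.74 (*Per2*) to 0.24 (*Cry2*) with *Arntl* and of -0.51 (*Cry1*) to 0.34 (*Cry2*) with *Nr1d1*.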
